A study of Mus musculus with 6 samples.

Results

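Heat shock protein genes were followed in peritoneal macrophages (PEMs) with and without *Tim-4*, a receptor for phosphatidylserine encoded by Timd4. The 10 genes described were chosen by their symbols, with earlier results of these data known, and no measured value is part of the rule. They are Hspa1a, Hspa1b, Hspa8, Hsp90aa1, Hsp90ab1, Hspb1, Hspd1, Hspe1, Hsph1 and Dnajb1. All 10 were found among the 15415 genes listed, and 9 of them were among the 9030 genes tested, which had a mean of at least 1 FPKM in one of the groups. FPKM are reads per kilobase of gene, scaled to the total of the library. Hspa1a and Hspa1b passed this filter only through the control group, where they were high, and Hspb1 did not pass it.

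The experiment comprised 6 libraries, 3 of the knockout genotype LysM-Cre; *Tim-4* fl/fl and 3 of the control genotype *Tim-4* fl/fl, each numbered 1 to 3 by its title. Both groups carried the floxed *Tim-4* allele, in which the stretch between introns 1 and 3 lies between loxP sites, on a C57BL/6J background. Only the knockout group carried Cre, which was driven from the lysozyme gene Lyz2 and so acts in myeloid cells in general, and no library with Cre and intact *Tim-4* is among the 6. By the study's methods the mice were males 6 to 8 weeks of age, and PEMs were collected 3 days after 1 ml of 6% starch had been injected into the peritoneum. The labels of all 6 libraries give LPS as the treatment. The methods describe the activation of macrophages by 1 μg/ml LPS over 3.5 hours, without saying whether this was done for the sequenced PEMs. The genotype entries of the labels are swapped relative to the titles, and the libraries were grouped by title. The labels do not say whether replicates came from separate animals or cultures, so p-values measure the spread between these libraries, which may be technical.

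Heat shock proteins are molecular chaperones that hold, fold and refold other proteins. The HSP70 chaperones bind unfolded stretches in a cycle of ATP hydrolysis that is started by J domain proteins of the HSP40 class and reset by nucleotide exchange factors such as HSP110. The HSP90 chaperones act later, on nearly folded kinases and receptors, while HSP60 and HSP10 form a folding chamber in mitochondria. Many of these genes are transcribed when heat, oxidants or misfolded protein release heat shock factor 1 (Hsf1), which binds repeats of the unit GAA or its reverse complement TTC in their promoters. In macrophages, chaperones are induced during fever and phagocytosis, and HSP90 has clients among the kinases of inflammatory signalling.

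The deletion was checked first. Timd4 was at 0.333, 0.394 and 0.246 FPKM in knockout and 19.5, 12.05 and 1.19 FPKM in control libraries 1 to 3. Control library 3 therefore had far less Timd4 than the other controls, although more than any knockout library, and Timd4, which was tested only through its control level, did not pass the threshold, a Benjamini-Hochberg adjusted p of 0.05 over all tested genes (adjusted p = 0.0715 from limma, and 0.0436 with the replicate numbers as a block). Lyz2, the gene from which Cre is expressed, was at 41.4, 4656 and 106 FPKM in knockout and 7090 to 8482 FPKM in the controls, and knockout library 2 stood apart from its group. Why control library 3 and knockout library 2 differ from their groups was not tested. Results for the heat shock genes are therefore given also without these libraries where that changes them. Between 36170767 and 42217558 reads per library were assigned to genes. The macrophage markers Adgre1 (234.7 to 363.8 FPKM) and Csf1r were present in every library. Csf1r was at 88.7, 83.3 and 143.4 FPKM in knockout and 179.6, 151.5 and 174.1 FPKM in control libraries, and the groups did not overlap.

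The promoters of the heat shock genes are shown because Hsf1 is known to regulate many of them through a short repeated element. RefSeq promoter windows, from 250 bases before to 50 after the start of transcription, matched 7 of the 10 genes in GRCm38.p6. The submitters' processing notes name mm9, and no coordinate was carried between the builds. Windows were searched on both strands for a pair of head-to-head or tail-to-tail units, spelled GAANNTTC or TTCNNGAA, which can overlap in a run. Each line below gives 60 bases, or 30 where annotated exons lie close by, read 5′ to 3′ on the strand of the gene, with the unit pairs in capitals.
Hspa1a: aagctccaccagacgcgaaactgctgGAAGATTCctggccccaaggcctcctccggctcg
Hspa1b: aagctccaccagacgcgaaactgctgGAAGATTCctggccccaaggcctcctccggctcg
Hspb1: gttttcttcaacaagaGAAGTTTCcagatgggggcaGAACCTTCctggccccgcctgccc
Hspd1: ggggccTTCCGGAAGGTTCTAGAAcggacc
Hspe1: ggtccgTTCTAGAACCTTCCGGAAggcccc
Hsph1: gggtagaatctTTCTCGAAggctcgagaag
These stretches lie at chr17:34972227-34972286 on the minus strand for Hspa1a, at chr17:34959309-34959368 on the minus strand for Hspa1b and at chr5:135887786-135887845 on the plus strand for Hspb1. The stretch of Hspd1 lies at chr1:55088053-55088082 on the minus strand. Hspe1 reads the same 30 bases from the plus strand, since both genes start on either side of one promoter and are transcribed away from each other. The stretch of Hsph1 lies at chr5:149636351-149636380 on the minus strand.

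A unit pair was found in at least 1 window of 6 of the 7 genes. Of all 32851 windows 15.1% hold one, a share per window and not per gene, and Hspd1, Hsph1 and Dnajb1 each have another window. The pair GAANNTTC alone is in 7.86% of all windows and TTCNNGAA in 8.52%. The first pair began 104 bases before the start in Hspa1a and in Hspa1b, 117 bases before it in Hspb1, and 54 or 33 bases before the annotated starts of Hsph1. The shared stretch of Hspd1 and Hspe1 held 3 overlapping pairs, beginning 144 bases before one start of Hspd1, whose other window held none, and 89 bases before that of Hspe1. Runs of 3 units were present in the windows of Hspd1, Hspe1 and Hsph1, in the last of these after the start, against 0.603% of all windows. Both windows of Dnajb1 lacked the pair. These matches describe letters in a window and are not evidence of binding.

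The 10 genes differed widely in level. Hsp90ab1 was highest, with a mean of 514.9 FPKM over the 6 libraries, followed by Hspa8 (394.5 FPKM), Hsp90aa1 (135.7 FPKM), Hspd1 (50.9 FPKM) and Hspe1 (44.5 FPKM). The order continued with Dnajb1 (7.0 FPKM), Hsph1 (3.83 FPKM), Hspa1b (1.33 FPKM), Hspa1a (0.978 FPKM) and Hspb1 (0.594 FPKM). Hspa8 was above Hsp90aa1, Hsp90aa1 above Hspd1, Hspe1 above Dnajb1, Dnajb1 above Hsph1 and Hsph1 above Hspa1b in 6 of 6 libraries. Neighbours that changed places in at least 1 library were Hsp90ab1 and Hspa8, Hspd1 and Hspe1, Hspa1b and Hspa1a, and Hspa1a and Hspb1. Hsp90ab1 and Hspa8, known as constitutive chaperones, thus held the top of the order in both groups. Those known for strong induction by stress, Hspa1a and Hspa1b, were near the bottom, but Hsp90aa1, known as the more inducible HSP90, stood next after Hspa8. Together the 10 genes took 0.242%, 0.244% and 0.218% of the reads in the knockout libraries and 0.347%, 0.302% and 0.284% in the control libraries, with no overlap. Hspa8 and Hsp90ab1 held most of this share, and both overlapped between the groups after rescaling, Hspa8 also as deposited. Among all tested genes, 23.0% had every knockout library below every control library in FPKM.

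**Figure D1:**
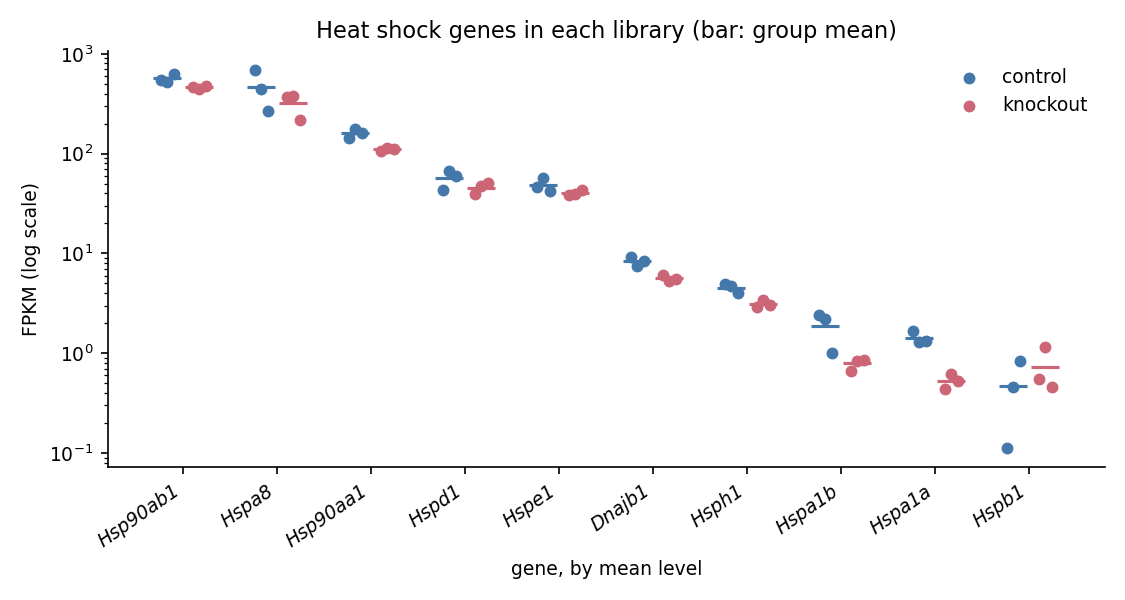
Level of each heat shock gene in each library, in FPKM on a log axis, with control libraries 1 to 3 (blue) left of knockout libraries 1 to 3 (red) and a bar at each group mean. Hsp90ab1 and Hspa8 sit at the top, Hspa1a, Hspa1b and Hspb1 around 1 FPKM or below it, and the knockout points of Hspa1a lie well under the control points.

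Knockout and control PEMs were then compared gene by gene, to ask which transcripts differ when macrophages lack *Tim-4*. Hspa1a and Hsp90aa1 passed the threshold, both lower in knockout, although Hspa1a was tested only because its control level was above the filter. The other 7 tested genes did not pass it and had negative fold changes, as had 63.5% of all tested genes (48.4% after rescaling). Hspa1b among them was likewise tested only through its control level. Among all 9030 tested genes, 428 (4.74%) passed as lower and 232 (2.57%) as higher in knockout. After rescaling of the libraries by the median of ratios over genes the split was 326 (3.61%) lower and 343 higher. With the replicate numbers as a block, 503 genes (5.57%) passed as lower and 352 as higher, and of the 10 heat shock genes only Hspa1a passed, as lower. Fold changes are knockout minus control on the scale of log2(FPKM + 1), which understates the change of low genes. The median fold change of all tested genes was -0.11 on this scale and 0.012 after rescaling. In bulk samples such as these, fewer cells of a type and less RNA per cell cannot be told apart.

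Hspa1a and Hspa1b encode the stress-inducible HSP70, from a pair of neighbouring genes on chromosome 17. Hspa1a was at 0.434, 0.618 and 0.524 FPKM in knockout (51, 73 and 60 reads) and 1.67, 1.29 and 1.33 FPKM in control libraries 1 to 3 (184, 141 and 135 reads). Every knockout library lay below every control library, and the means were 0.525 ± 0.0922 against 1.43 ± 0.204 FPKM (SD, n = 3 each), a ratio of 0.367. The fold change was -0.67 ± 0.12 (SE; adjusted p = 0.0263 from limma). It was -0.61 after rescaling (adjusted p = 0.0413 from limma). The call was lost on leaving out any one of the knockout libraries, with adjusted p = 0.113, 0.108 and 0.0598 from limma without library 1, 2 or 3. It was also lost without control library 2 (0.103) and without control library 3 and knockout library 2 together (0.0573), while the fold change was negative in each of these fits.

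Hspa1b was at 0.669, 0.843 and 0.861 FPKM in knockout (79, 100 and 99 reads) and 2.41, 2.20 and 1.0 FPKM in control libraries (267, 241 and 102 reads). The groups did not overlap, but control library 3, the control low in Timd4, came close to the knockout libraries, and after rescaling the groups overlapped. The fold change was -0.64 ± 0.21 (SE; adjusted p = 0.107 from limma). Without control library 3 it was -0.89 and passed the threshold (adjusted p = 0.00678 from limma), and without both libraries that stood apart it was -0.91 (adjusted p = 0.033 from limma).

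Hspa1a and Hspa1b are near-identical copies, and the split of reads between them is uncertain. In the annotated transcripts of GRCm38 their open reading frames of 1926 and 1929 bases were 99.5% identical, and 47.1% of the stretches of 100 bases in the Hspa1a transcript occur unchanged in that of Hspa1b. The 250 bases before their starts differed at 3 positions. The level of Hspa1b relative to Hspa1a was 1.54, 1.36 and 1.64 in the knockout libraries and 1.45, 1.70 and 0.752 in the control libraries, so control library 3 alone had more Hspa1a than Hspa1b. Summed over both genes, which depends less on the split, the level was 1.10, 1.46 and 1.39 FPKM in the knockout libraries and 4.07, 3.5 and 2.34 FPKM in the control libraries. The knockout mean was 0.399 of the control mean, with no overlap (p = 0.1 by a two-sided exact permutation test, the lowest p that 3 libraries against 3 can give). Taken as 1 gene, the pair passed the threshold (adjusted p = 0.0336 from limma).

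Hspa8 encodes HSC70, the constitutive HSP70 of the cytosol, which also uncoats clathrin vesicles and delivers proteins to lysosomes. It was at 368.2, 378.5 and 216.4 FPKM in knockout and 693.2, 444.9 and 265.7 FPKM in control libraries. The groups overlapped, with library 3 the lowest of each group and control library 1 the highest of all. The fold change was -0.48 ± 0.37 (SE; 95% confidence interval -1.35 to 0.39; adjusted p = 0.433 from limma), the widest interval of the tested heat shock genes. The sum of Hspa1a and Hspa1b, in thousandths of Hspa8, was 2.99, 3.86 and 6.40 in the knockout libraries and 5.88, 7.86 and 8.80 in the control libraries. These ratios overlapped (two-sided exact permutation p = 0.2).

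Hsp90aa1 and Hsp90ab1 encode the HSP90 isoforms of the cytosol, the first known as the more inducible and the second as the constitutive one. Hsp90aa1 was at 107.3, 113.4 and 112.0 FPKM in knockout and 144.8, 175.4 and 161.1 FPKM in control libraries. The groups were well apart, with means of 110.9 ± 3.18 against 160.4 ± 15.3 FPKM (SD, n = 3 each) and a ratio of 0.691. The fold change was -0.52 ± 0.12 (SE; adjusted p = 0.0499 from limma), at the edge of the threshold. In other fits limma gave an adjusted p of 0.0591 without the filter on low values, 0.0649 with the replicate numbers as a block, 0.110 after rescaling (fold change -0.38) and 0.121 with voom on the recovered reads. It passed without control library 1 (0.0460) or control library 3 (0.0459) and not when any other library was left out.

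Hsp90ab1 was at 463.4, 448.0 and 478.2 FPKM in knockout and 550.6, 519.7 and 629.3 FPKM in control libraries. The knockout libraries were all lower, by less than for Hsp90aa1, and the groups overlapped after rescaling. The fold change was -0.29 ± 0.13 (SE; 95% confidence interval -0.58 to 0.011; adjusted p = 0.195 from limma). For every 100 FPKM of Hsp90ab1 there were 23.2, 25.3 and 23.4 FPKM of Hsp90aa1 in the knockout libraries and 26.3, 33.7 and 25.6 FPKM in the control libraries. This ratio, chosen after the values had been seen, did not overlap between the groups, although knockout library 2 and control library 3 nearly met (two-sided exact permutation p = 0.1, the smallest possible).

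Hsph1 and Dnajb1 encode partners of HSP70. Hsph1, the HSP110 that exchanges its nucleotide, was at 2.90, 3.44 and 3.05 FPKM in knockout and 4.94, 4.69 and 3.97 FPKM in control libraries. The groups did not overlap, and control library 3 was again the control nearest to the knockout libraries. The fold change was -0.42 ± 0.13 (SE; adjusted p = 0.0929 from limma). Without control library 3 it was -0.49 and passed the threshold (adjusted p = 0.0461 from limma), while without control library 3 and knockout library 2 it did not (adjusted p = 0.110 from limma).

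Dnajb1, the HSP40 that delivers clients to HSP70 and stimulates its ATPase, was at 6.13, 5.30 and 5.49 FPKM in knockout and 9.22, 7.53 and 8.33 FPKM in control libraries. The groups were apart both as deposited and after rescaling. The means were 5.64 ± 0.433 against 8.36 ± 0.845 FPKM (SD, n = 3 each), a ratio of 0.675 close to that of Hsp90aa1. The fold change of -0.49 ± 0.13 (SE) did not pass the threshold (95% confidence interval -0.80 to -0.19; adjusted p = 0.0618 from limma).

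Hspd1 and Hspe1 encode the mitochondrial HSP60 and its lid HSP10 and share the promoter shown above. Hspd1 was at 39.0, 46.9 and 50.2 FPKM in knockout and 43.1, 66.2 and 60.2 FPKM in control libraries. The groups overlapped because control library 1 lay below knockout libraries 2 and 3 (fold change -0.30; 95% confidence interval -0.74 to 0.15; adjusted p = 0.35 from limma). Hspe1 was at 38.4, 39.3 and 43.6 FPKM in knockout and 46.5, 56.9 and 42.6 FPKM in control libraries. It overlapped through control library 3, which was below knockout library 3 (fold change -0.25; 95% confidence interval -0.60 to 0.091; adjusted p = 0.301 from limma). The ratio of Hspd1 to Hspe1 was 1.02, 1.19 and 1.15 in the knockout libraries and 0.926, 1.16 and 1.41 in the control libraries, with no difference between the groups detected (two-sided exact permutation p = 0.9).

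Hspb1 encodes HSP25, the small heat shock protein that holds unfolding proteins without ATP and binds actin. It was at 0.553, 1.15 and 0.460 FPKM in knockout (21, 44 and 17 reads) and 0.112, 0.455 and 0.827 FPKM in control libraries (4, 16 and 27 reads). The groups overlapped widely, and it was the only one of the 10 genes with a higher mean in knockout. In the fit without a filter its fold change was 0.24 (95% confidence interval -0.30 to 0.78; adjusted p = 0.545 from limma), and no difference was detectable at this depth.

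Of the 7 heat shock genes with a mean of at least 1 FPKM in both groups, 4 had every knockout library below every control library: Hsp90aa1, Hsp90ab1, Hsph1 and Dnajb1. Among all tested genes 23.0% did so. After rescaling, 2 of the 7 did so, Hsp90aa1 and Dnajb1, against 15.6% of all tested genes. The median fold change of the 7 genes was -0.42 as deposited and -0.31 after rescaling. The 2 genes that entered the test through the control group, Hspa1a and Hspa1b, are left out of these counts. Without control library 3, Hsp90aa1 and Hsph1 of the 7 passed the threshold, and so did Hspa1a and Hspa1b, while 8.93% of all tested genes passed as lower. When both libraries that stood apart were left out, Hspa1b alone passed, a gene tested only through its control level, while 4.02% of all tested genes passed as lower.

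**Figure D2:**
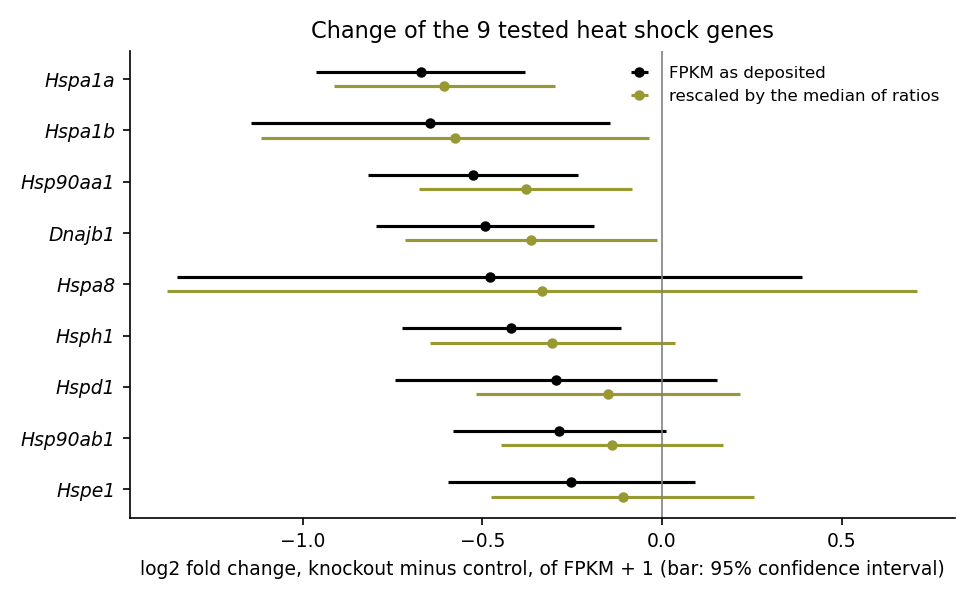
Fold change of the 9 tested heat shock genes, knockout minus control on the scale of log2(FPKM + 1), with 95% confidence intervals from limma, for the deposited FPKM (black) and after rescaling by the median of ratios (olive). All 9 estimates lie left of 0 on both scales, rescaling moves each toward 0, and the interval of Hspa8 is the widest. Of all tested genes 63.5% lie there as deposited and 48.4% after rescaling, and Hspa1a and Hspa1b were tested only through their control level.

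Libraries with the same replicate number were also set side by side. The knockout library was below the control library in all 3 numbers for 6 of the 7 genes above the filter in both groups, the exception being Hspe1, both as deposited and after rescaling. Among all tested genes 36.4% were so as deposited and 23.7% after rescaling. For Hspa8 the differences within numbers 1, 2 and 3 were -0.91, -0.23 and -0.30 on the scale of log2(FPKM + 1), and number 3 was the lowest of each group. With the replicate number as a block its adjusted p was 0.145 from limma. For Hspa1b the differences were -1.03, -0.80 and -0.11, smallest in number 3. For Hsp90aa1 they were -0.43, -0.62 and -0.52, and for Dnajb1 -0.52, -0.44 and -0.52, the evenest of the 10 genes.

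**Figure D3:**
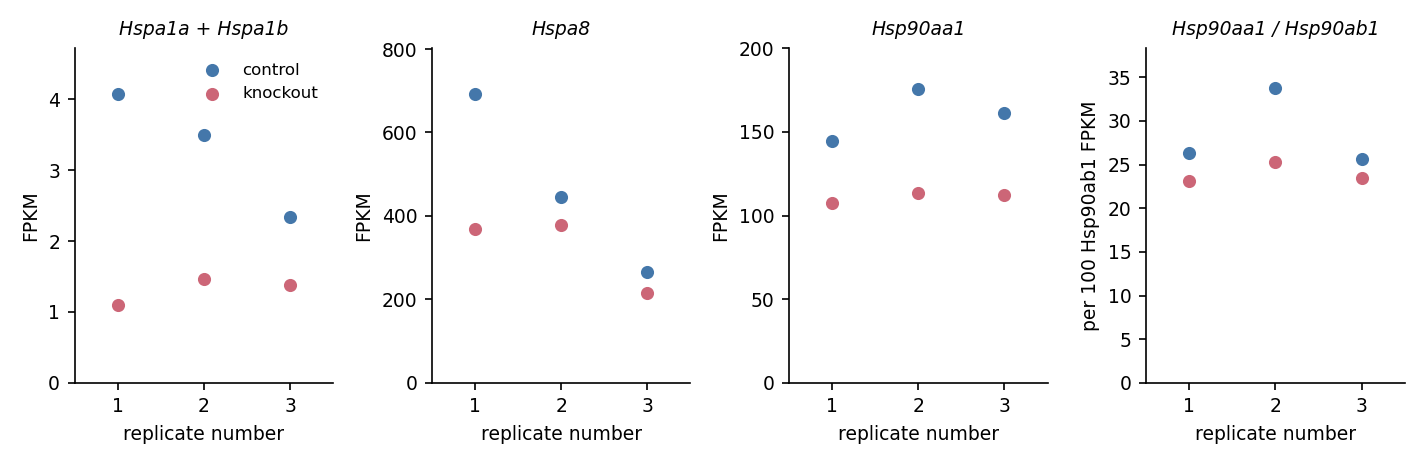
Levels by replicate number in control (blue) and knockout (red) libraries, for the sum of Hspa1a and Hspa1b, for Hspa8 and for Hsp90aa1 in FPKM, and for Hsp90aa1 per 100 FPKM of Hsp90ab1; axes start at 0. The knockout point is below the control point at each number in every panel, and the controls of Hspa8 spread from 265.7 to 693.2 FPKM, across the level of the knockout libraries.

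Other genes of the chaperone system were read beside these. Of 95 genes in 8 lists, 92 were in the table and 81 were tested. Their fold changes were negative in 61 and positive in 20, with a median of -0.18, while 63.5% of all tested genes had a negative fold change. Of the 81, 6 passed the threshold as lower and none as higher, against the 4.74% and 2.57% of all genes given above (21 had an unadjusted p below 0.05 in limma, as had 27.6% of all tested genes, and voom called 4 lower and none higher). After rescaling, 45 of the 81 were lower, against 48.4% of all tested genes, the median was -0.04 and 4 passed. With single libraries left out, none of the 81 passed without knockout library 1 or control library 2, and Dnajb4 alone passed without knockout library 2. In these fits only 18, 7 and 45 of all tested genes passed as lower. Without knockout library 3, 4 of the 81 passed and without control library 1, 6, all as lower, against 353 and 510 of all tested genes. Without control library 3, 15 of 80 tested passed as lower and 2 as higher (Cryab and Hspbp1), against 8.93% and 5.87% of all tested genes. Those gained as lower were Hspa5, Hyou1, Hsp90b1, Dnajb9, Dnajc2, Dnajc3, Ptges3, Yme1l1 and Cct3. Without control library 3 and knockout library 2, 4 passed as lower (Dnajb4, Dnajc10, St13 and Hsf2), against 4.02% of all tested genes.

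The heat shock factors were read first. Hsf1, the main regulator of the heat shock response, was at 7.5, 6.38 and 8.08 FPKM in knockout and 7.44, 6.71 and 10.2 FPKM in control libraries, which overlapped (fold change -0.12; adjusted p = 0.689 from limma). Hsf2, a factor that binds the same element, was at 1.13, 1.07 and 1.56 FPKM in knockout and 3.65, 5.18 and 2.79 FPKM in control libraries. It fell with a fold change of -1.09 ± 0.20 (SE; adjusted p = 0.0261 from limma, and 0.0557 without the filter) and was the 1 gene of the 3 tested in its list to pass. Of the J domain proteins, 24 were tested, 19 were lower and 2 passed. After rescaling 11 were lower, the median was 0.01 and 1 passed. The 2 were Dnajb4, a cytosolic relative of Dnajb1 that was tested only because its control mean of 3.5 FPKM was above the filter (knockout mean 0.658 FPKM; fold change -1.44; adjusted p = 0.00779 from limma), and Dnajc10, a disulfide reductase of the endoplasmic reticulum (fold change -1.20; adjusted p = 0.0426 from limma, 0.0759 after rescaling and 0.0523 with the replicate block). With the block Dnajb9, another J domain protein of the endoplasmic reticulum, passed as lower (fold change -1.16; adjusted p = 0.0429 from limma).

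Among 21 tested cochaperones of HSP70 and HSP90, 15 were lower and 2 passed, while after rescaling 10 were lower, the median was 0.02 and 1 passed. Bag3, a nucleotide exchange factor of HSP70 in selective autophagy, was at 7.82, 7.90 and 7.80 FPKM in knockout and 12.5, 11 and 12.4 FPKM in control libraries (fold change -0.55 ± 0.12, SE; adjusted p = 0.0367 from limma, 0.0873 after rescaling and 0.0515 with the replicate block). St13, which encodes the HSP70-interacting protein HIP, fell with a fold change of -0.79 ± 0.13 (SE; adjusted p = 0.0196 from limma, and 0.0413 after rescaling). Stip1, the HOP protein that bridges HSP70 and HSP90, was at 85.0 to 96.8 FPKM in knockout and 87.4 to 96.1 FPKM in control libraries (fold change -0.04; adjusted p = 0.861 from limma).

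Of the 7 other HSP70 and HSP110 genes tested, 6 were lower and 1 passed, namely Hspa13, a microsomal HSP70 (fold change -1.04; adjusted p = 0.0332 from limma, and 0.0605 without the filter). Hspa5, the BiP chaperone of the endoplasmic reticulum (fold change -0.24; adjusted p = 0.496 from limma), and Hspa9, the mitochondrial HSP70 (fold change -0.09; adjusted p = 0.827 from limma), did not pass, although Hspa5 did without control library 3 (0.0423). In the HSP90 list neither gene passed with all 6 libraries. Hsp90b1 of the endoplasmic reticulum had a fold change of -0.43 (adjusted p = 0.0967 from limma, but 0.0320 when control library 3 was left out) and Trap1 of mitochondria one of 0.06 (adjusted p = 0.805 from limma).

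With all 6 libraries, no gene passed among 9 mitochondrial chaperones and proteases, of which 6 were lower (1 had an unadjusted p below 0.05 in limma). The highest by level were Yme1l1 (fold change -0.90; adjusted p = 0.0829 from limma, but 0.0160 when control library 3 was left out) and Lonp1 (fold change 0.19; adjusted p = 0.664 from limma). None passed with all 6 libraries among 14 subunits of the cytosolic chaperonin and prefoldin, of which 12 were lower (3 had an unadjusted p below 0.05 in limma), while Cct3 passed without control library 3 (0.0460). The highest of these were Pfdn5 (fold change 0.17; adjusted p = 0.474 from limma) and Cct2 (fold change -0.26; adjusted p = 0.223 from limma). Of the small heat shock proteins besides Hspb1, Cryab was tested and had a fold change of 0.92 (adjusted p = 0.311 from limma, but 0.0284 when control library 3 was left out), with Hspb6 the next by level and below the filter.

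**Figure D4:**
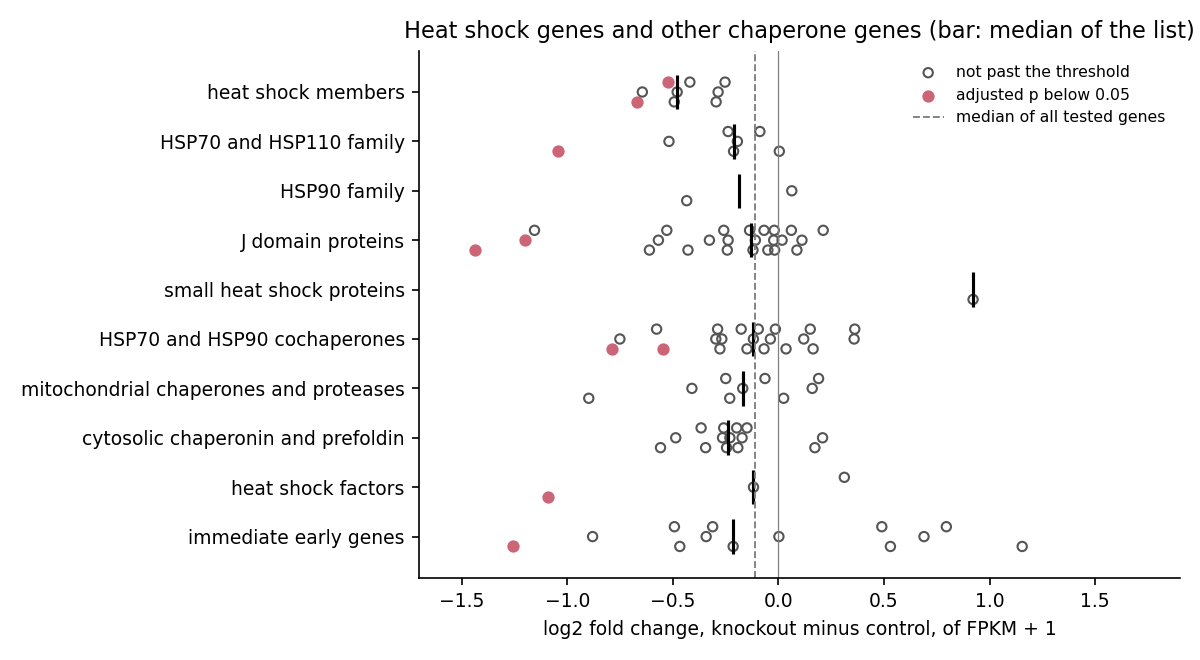
Fold change of each tested gene, knockout minus control on the scale of log2(FPKM + 1), for the heat shock genes (top row), the 8 chaperone lists and the immediate early genes; filled points passed an adjusted p of 0.05 in limma, bars are list medians and the dashed line is the median of all tested genes at -0.11. The filled points among the chaperone lists, 6 in all, lie left of 0.

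Immediate early genes, which rise when cells are handled or stimulated, were read as a further list. Of 13 tested, 7 were lower, 7 had an unadjusted p below 0.05 in limma and 1 passed, Nr4a1, an orphan nuclear receptor (fold change -1.26, adjusted p = 0.0292 from limma). Of all tested genes 63.5% were lower, 27.6% had an unadjusted p below 0.05 in limma, and 4.74% passed as lower. Nr4a1 was tested only because its control mean of 2.98 FPKM was above the filter (knockout mean 0.618 FPKM). It was not called with voom (0.0530), without the filter (0.0598), or without knockout library 1, knockout library 2 or control library 2. Atf3, a stress-induced repressor, passed as higher after rescaling (fold change 0.94; adjusted p = 0.0333 from limma) and with voom (0.0357). Atf3 passed as higher and Ier3 and Egr3, the latter tested only through its control level, as lower without control library 3, whether knockout library 2 was kept or not. Zfp36, which destabilises cytokine transcripts, passed as higher with the replicate block (adjusted p = 0.0208 from limma) and without either knockout library 3 or control library 1. Junb, a subunit of AP-1, did not overlap between the groups (fold change 0.69; adjusted p = 0.0761 from limma) and passed as higher when control library 1 was left out. Their summed level was 918.6 to 1269 FPKM in the knockout and 756.3 to 1312 FPKM in the control libraries. Markers of cell types were read in the same way. The 5 B cell markers read summed to 10.9 to 11.7 FPKM in knockout and 32.6 to 115.7 FPKM in control libraries, lowest of the controls in library 3, and Cd79a passed as lower (fold change -3.29; adjusted p = 0.0117 from limma, and 0.0542 without knockout library 2). Cd22, most of the sum in each knockout library, was at 6.42 to 8.25 FPKM in knockout and 5.4 to 9.58 FPKM in control libraries (fold change 0.01; adjusted p = 0.979 from limma). The 6 mast cell markers summed to 1.89 to 2.25 FPKM against 37.5 to 49.0 FPKM, and Tpsb2, Cma1, Cpa3, Mcpt4 and Kit had fold changes of -3.26 to -0.90. These mast cell genes, and Cd79b, Ms4a1 and Fcmr of the B cell markers (fold changes -3.03 to -2.20), were tested only because their control level was above the filter. Neutrophil markers summed to 108.5 to 229.5 FPKM against 230.9 to 477.3 FPKM, and 1 of 5, S100a8, passed as lower (fold change -1.58). Retnlg, tested only through its control level, passed with the replicate block (0.0437) or without control library 3 (0.0461). Mmp8 overlapped widely, at 29.2 to 127.5 FPKM in knockout and 19.5 to 293.9 FPKM in control libraries, and Csf3r had a fold change of 0.46 (adjusted p = 0.304 from limma). Mesothelial and fibroblast markers summed to 14.8 to 36.1 FPKM against 2.17 to 18.0 FPKM, and none of 5 passed (2 had an unadjusted p below 0.05 in limma), including Dcn and Col1a2, the highest by level (fold changes 0.97 and 1.72). With the replicate block Col1a1 and Col1a2 (adjusted p = 0.0443 and 0.0277 from limma), and without control library 3 Col1a2 and Krt8 (0.0299 and 0.0399), came below the threshold as higher, but in these fits they were tested only through their knockout level. T cell markers summed to 0.849 to 1.53 FPKM against 0.996 to 3.25 FPKM, and Lck, the 1 tested, did not pass (fold change -0.08); Cd4, the next by level, was below the filter. Of the 8 macrophage markers, 5 were lower and 1, Fcgr1, passed, as higher (fold change 2.82). The 7 besides Lyz2, the gene that drives Cre, summed to 2621 to 2876 FPKM against 2194 to 2665 FPKM, which overlapped, and Cd68 was the highest of them. The groups did not overlap, with knockout lower, for Csf1r and Cd14 (fold changes -0.71 and -0.73; adjusted p = 0.0903 and 0.0631 from limma) and with knockout higher for Cd68 (fold change 0.62; adjusted p = 0.0989 from limma). Cd14 passed as lower (0.0388) and Cd68 as higher (0.0212) without control library 3, and Lyz2 as lower (0.00555) without knockout library 2. No listed marker was at 0 in all knockout libraries. The part of these cells in the levels of the heat shock genes was not tested.

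The genes whose profile over the 6 libraries was nearest to the mean profile of the 9 tested heat shock genes were Armcx3, Map1lc3a, Ecpas, Acvr1b and Ybx3. They were taken from 5454 genes with a mean of at least 5 FPKM, by the root mean square difference of centred log2(FPKM + 1) values, which ran from 0.0434 for Armcx3 to 0.0571 for Ybx3. The mean profile includes Hspa1a and Hspa1b, which were tested only through their control level. Lower knockout levels in the genes picked by nearness to this profile follow from the choice. Map1lc3a encodes LC3A, a protein of autophagosome membranes, and was at 4.19, 4.67 and 4.28 FPKM in knockout and 7.44, 6.95 and 5.53 FPKM in control libraries. Ecpas encodes an adaptor of the proteasome and was at 11.3, 12.1 and 10.9 FPKM in knockout and 16.9, 17.2 and 15.8 FPKM in control libraries. In both, as in Hspa1b, Hspa8, Hspe1 and Hsph1, control library 3 was the lowest control. It was so too in the mean profile by which Map1lc3a and Ecpas were picked, so for them this follows from the choice. Armcx3, a protein of the mitochondrial outer membrane, had means of 5.58 ± 0.287 and 7.83 ± 1.07 FPKM in knockout and control libraries (SD, n = 3 each). Acvr1b, an activin receptor, had means of 14.1 ± 1.27 and 19.0 ± 1.55 FPKM, and Ybx3, a cold shock domain protein that binds RNA, 60.2 ± 1.39 and 80.6 ± 5.36 FPKM.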

How the data were processed

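RNA of PEMs was sequenced in 3 knockout and 3 control libraries. The authors deposited 1 table with FPKM per gene and library and, as signal, mean reads per group divided by median-of-ratios size factors. Its fold change, p-value and q-value columns hold the authors' own comparison and were not used. The submitters' notes name mm9; the aligner, counter and annotation are not given in the sources used here. Whole reads were recovered from the FPKM with the authors' mean of normalized reads over all libraries, for 100% of values (tolerance 0.05 reads, wider in proportion to the count for high counts). Every per-sample column was used. The plan held a count model for raw counts; for FPKM it held limma, so log2(FPKM + 1) went into limma 3.58.1 (lmFit and trended eBayes, under R 4.3.3) for the 9030 genes with a mean of at least 1 FPKM in one group, with Benjamini-Hochberg adjustment over all of them and a threshold of 0.05. All adjusted p-values are from limma.

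The heat shock genes and the lists were chosen with earlier results of these data known. The lists were other chaperone genes in 8 families, immediate early genes, and markers of macrophages, mast cells, neutrophils, B and T cells, and fibroblasts with mesothelium; Hspa12b, Hspb3, Hsf5, Ighm, Trac and Ly6g were not analysed here. 1 marker left out of the lists is not reported here. The genes named are the 10 heat shock genes, the genes of each other list past the threshold or its 2 highest by level, at most 5 a list, genes tied to a heat shock gene (Hsf1, Hsf2, Hspa5, Hspa9, Hsp90b1, Bag3 and Stip1), Timd4, Lyz2, and the 5 nearest in profile. Adgre1 and Csf1r were added to check the cell type, and other listed genes are named, after their values were seen, where a fit other than the one above called them or their values went against their list.

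Alternatives were no filter, a pseudocount of 0.1, a rescaling by the median of ratios, voom on the recovered reads, Hspa1a and Hspa1b summed, each library left out, and the replicate number as a block. Deviations of same-numbered libraries from their group means correlated at 0.109, 0.109 and 0.304, and those of other pairs at -0.332 to 0.291. The value for knockout library 2 with control library 1, 0.291, was above those of numbers 1 and 2. This check, the only source for it, therefore does not settle whether the numbers pair the libraries. The fits were tested on simulated data. Promoters came from RefSeq (GRCm38.p6) and transcripts from the GENCODE annotation of GRCm38.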

Additional observations from a re-analysis of the deposited data

How the results depend on the processing

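With 3 libraries a group, single libraries decided most calls. The fold changes of the 7 heat shock genes above the filter in both groups were negative under every alternative run. Of all tested genes 63.5% were negative with the settings used and 48.4% after rescaling. The fold changes of Hspa1a and Hspa1b were negative too, but these genes were tested only through their control level, which sets the sign in advance. Of 115 refits of single genes, 98 left the call as it was, 14 lost it and 3 gained it, and none changed direction. Only Hspa1a and Hsp90aa1 had a call to lose, and the 14 losses were all theirs. Most of the 98 were refits of genes without a call. Of the heat shock genes, 2 passed with the settings used, 1 without a filter, with voom, after rescaling or with the replicate block, and 0 to 4 with single libraries left out. The fit without control library 3 and knockout library 2, chosen after seeing the data, passed 1. These counts include Hspa1a and Hspa1b, which were tested only through their control level. Of the 7 heat shock genes above the filter in both groups, 1 passed with the settings used, 0 without a filter, with voom, after rescaling, with the block or without both libraries above, and 0 to 2 with single libraries left out. Of all tested genes 4.74% passed as lower with the settings used, 3.61% after rescaling and 5.57% with the replicate block. The replicate block changed the call of Hsp90aa1 and of no other heat shock gene. Leaving out single libraries gave 8 (control library 2) to 1333 (control library 3) genes past the threshold against 660 with all libraries. Leaving out knockout library 1 gave 30 and knockout library 2 gave 63. Genes higher in knockout were 35.2% of those past the threshold and 51.3% after rescaling. Of the chaperone lists 6 genes passed, 3 without a filter and 0 (without knockout library 1 or control library 2) to 17 (without control library 3) with single libraries left out. Of the immediate early genes 1 passed, 0 without a filter, 2 with the replicate block or after rescaling, 4 without control library 3 and knockout library 2, and 0 to 4 with single libraries left out. The cause was not tested. The ratio of summed Hspa1a and Hspa1b stayed between 0.348 and 0.451 with single libraries left out and was 0.433 after rescaling. Counts of 4 to 44 reads limit what can be said of Hspb1.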
